A study of Mus musculus with 5 samples.

Results

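The histone-modifying enzymes measured here were the deacetylases, sirtuins, lysine acetyltransferases, lysine demethylases, lysine methyltransferases, SET domain proteins and protein arginine methyltransferases of mouse epiblast stem cells. They were chosen by gene symbol in the platform annotation, as every symbol that begins with Hdac, Sirt, Kat, Kdm, Kmt, Setd or Prmt followed by a digit. This gave 99 probes of 57 genes, out of 25697 probes and 16593 named genes on the array. The rule picks genes by name and not by measured value, though it was set with earlier results of these data known. RefSeq holds 68 protein-coding genes with such symbols, and the other 11 are not analysed here.

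The cells were epiblast stem cells, primed pluripotent cells of the post-implantation kind, of line E3 (hybrid background). All cultures were grown on growth-inactivated CF1 mouse embryonic fibroblasts in KSR (serum replacement) medium with 5 ng/ml FGF2, and at semiconfluence they were moved for 3 h to KSR medium for which no FGF2 is stated. The untreated culture (UT) had no supplement in that medium. The other cultures had the MEK inhibitor PD0325901 at 1 uM (PD), the GSK3 inhibitor CHIR99021 at 3 uM (CH), LIF, a cytokine that signals through STAT3, at 1000 U/ml, or these 3 agents at once (PCL). Every condition has 1 Illumina bead array of 1 colour, so a difference between 2 conditions has no replicate check.

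Histone-modifying enzymes add or remove acetyl and methyl groups on histone tails. Acetylation and methylation of H3K4 mark active genes, methylation of H3K9 and H3K27 marks repressed genes, and each mark has enzymes that write it and enzymes that erase it. Primed and naive pluripotent cells differ in how these marks are spread over the genome, and several of the enzymes are needed for the passage between these states. Some proteins with such names act mainly outside chromatin. Sirt3 and Sirt5 are mitochondrial, and Setd3 methylates actin.

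The arrays detected between 39.4% and 42.7% of their probes, at a detection p-value under 0.01, and their median signal lay between 83.3 and 91.1. Levels below are log2 normalized signals after background correction. The lowest detected level was 4.89 in UT, 4.98 with PD, 4.78 with CH, 4.77 with LIF and 4.81 with PCL. A level that counts as detected on 1 array can therefore go undetected on another. A probe's signal depends on its sequence as well as on its transcript, so levels are compared between arrays and not between genes. All 8 epiblast stem cell markers on a fixed list (Pou5f1, Sox2, Nanog, Fgf5, Otx2, Dnmt3b, Lefty2 and Tdgf1) were detected on the 5 arrays, as were 4 of 8 fibroblast markers. The summed normalized signal of the epiblast markers ran from 21540 to 24340, and that of the trophoblast markers from 161 to 291, highest with PCL. That of the fibroblast markers ran from 1324 with PD to 1577 in UT, while Col1a2, Col3a1, Postn and S100a4 were not detected on any array. Of the other lists, 0 of 3 neural, 2 of 4 endoderm, 1 of 4 trophoblast and 0 of 2 measured mesoderm markers were detected on the 5 arrays. In these mixed RNA samples fewer cells of a kind and less RNA per cell cannot be told apart, and the part of the feeder cells in the results was not tested.

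Most of the enzyme genes were detected. Of 57 genes, 45 had a probe detected on all 5 arrays (78.9%, against 41.1% of all named genes), 8 had one detected on some arrays, and 4 were not detected on any. The undetected genes were the class IIa deacetylase Hdac9, the demethylase Kdm4d, the neural arginine methyltransferase Prmt8, and Prmt9. By probe, 66 of 99 were detected on all 5 arrays, 15 on some and 18 on none, so 81 probes of 53 genes could be followed. All 6 sirtuin genes and all 4 Kmt genes were detected on the 5 arrays, against 9 of 14 demethylase genes, of which 4 more were detected on some arrays.

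**Figure D1:**
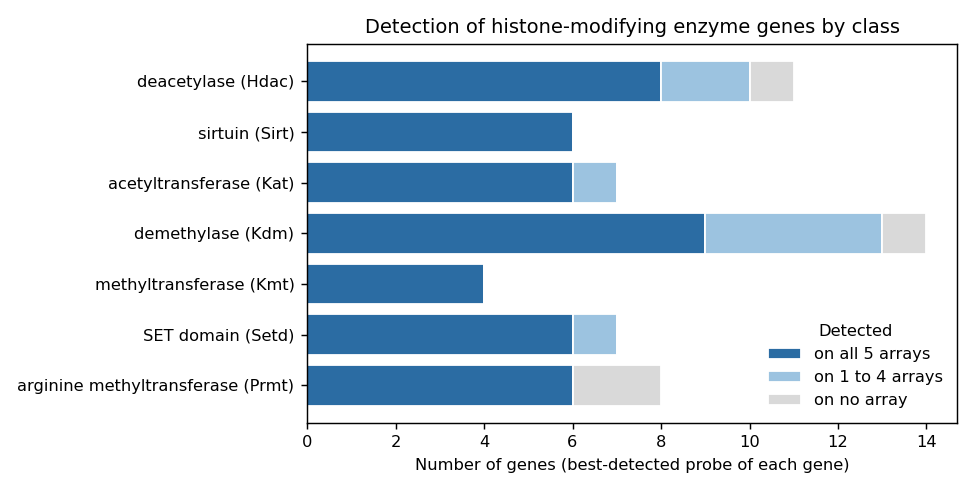
Number of genes (x axis) in each enzyme class (y axis) whose best-detected probe was detected on all 5 arrays, on 1 to 4 arrays or on no array. The demethylases held 4 of the 8 genes with partial detection, and all sirtuin and Kmt genes were detected on the 5 arrays.

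None of the 81 detected enzyme probes passed a term of the additive fit, for any of the 3 agents. This limma model with terms for PD, CH and LIF was fitted over the 5 arrays to all 12049 probes detected on at least 1 array, and it called 2.56% of them for PD, 1.22% for CH and 0.722% for LIF at an adjusted p under 0.05 (Benjamini-Hochberg). With shares that small over the whole array, a count of 0 among 81 probes is near the background. At an unadjusted p under 0.05 there were 8 enzyme probes for PD, 4 for CH and 4 for LIF, that is 9.88%, 4.94% and 4.94%, against 10.6%, 10.7% and 7.12% of all probes. The fit has 1 residual degree of freedom, its error comes from how far PCL lies from the added effects of the agents, and it measures no variation between cultures.

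The intervals give the range of effects under that model. Their width follows a probe's intensity and not how well its own values fit, so they do not bound effects for probes that fit badly. For Kdm5b the PD interval of -0.11 to 0.56 left out its measured difference from UT, 0.84. The 95% interval of the effect lay within 2-fold in either direction for all 81 probes and all 3 agents. It lay within 1.5-fold for 71 of the 81 with PD, 71 with CH and 71 with LIF. The effects ran from -0.49 to 0.36 for PD, from -0.31 to 0.42 for CH and from -0.37 to 0.45 for LIF on the log2 scale. The smallest effect that passed for any probe on the array was 0.30 in size for PD, 0.35 for CH and 0.39 for LIF.

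**Figure D2:**
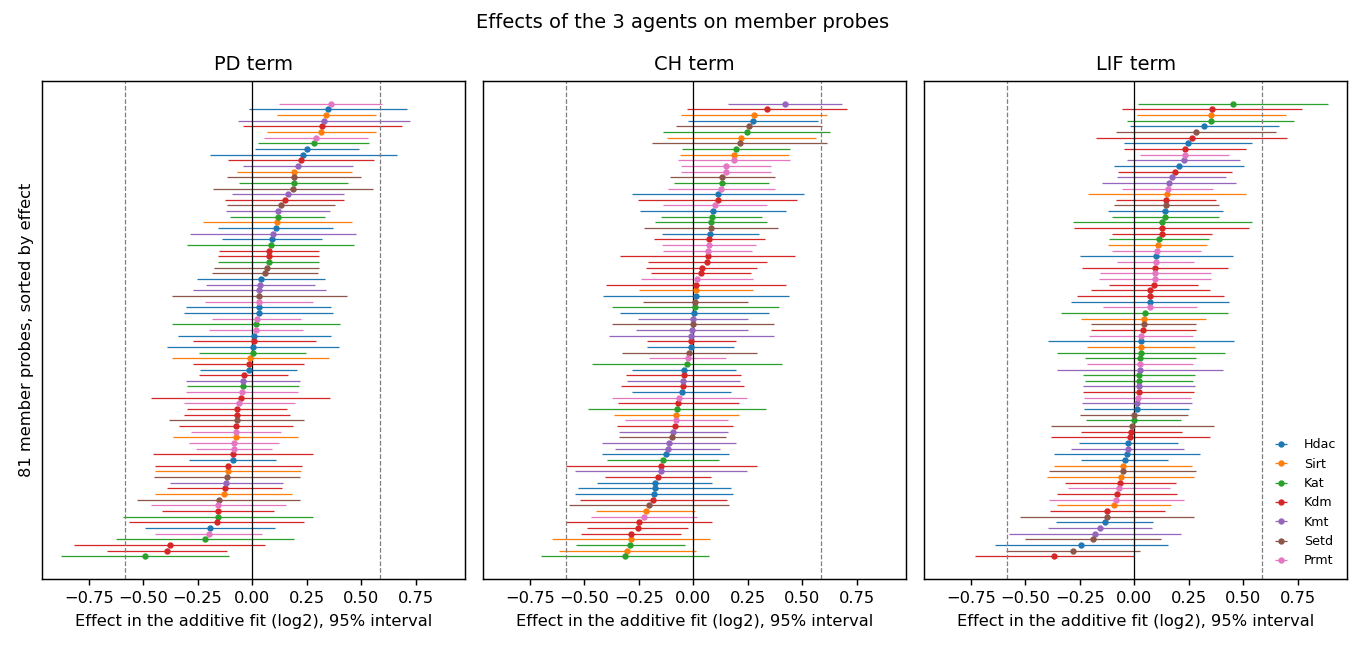
Effect of PD, CH and LIF (x axis, log2) on each of the 81 detected enzyme probes, sorted by effect, with its 95% interval from the additive limma fit and coloured by class. The dashed lines mark 1.5-fold, and the point estimates lie between -0.49 and 0.45.

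Among the 66 probes detected on all 5 arrays the signal varied little from array to array. The median distance between the highest and the lowest array was 0.32 (log2), against 0.36 for all 9613 such probes, and it was under 0.5 for 56 of the 66 (84.8%, against 76.5%). It reached 1 for 0 enzyme probes, against 1.76% of all probes. The untreated array was the highest or the lowest of the 5 for 24 of the 66 (36.4%, against 39.9% of all probes).

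Against the untreated array 0 enzyme probes differed by 2-fold, a background share of 0.675% for PD, 0.168% for CH, 0.08% for LIF and 0.966% for PCL. At 1.5-fold, counting probes detected on at least 1 of the 2 arrays, 2 of 73 enzyme probes differed with PD (background 5.4%), 1 of 76 with CH (3.01%), 4 of 79 with LIF (1.72%) and 4 of 76 with PCL (6.36%). These 11 differences belong to 7 probes of 6 genes, namely the demethylases Kdm5b and Kdm4c, the acetyltransferases Kat2b, Kat5 and Kat6b, and the sirtuin Sirt6. Of the 11, 6 had detection on both arrays, and 6 of the 7 probes were dim, with a mean log2 signal under 6. On the whole array, too, dim probes passed 1.5-fold more often than brighter ones, for instance 9.88% against 3.29% with PD and 3.78% against 0.639% with LIF. Of the dim enzyme probes, 2 of 24 passed with PD and 4 of 30 with LIF. With CH it was 1 of 27 (5.88% of all dim probes) and with PCL 3 of 27 (8.87%). The 4 comparisons share the untreated array, so that a probe low there is higher in all of them.

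**Figure D3:**
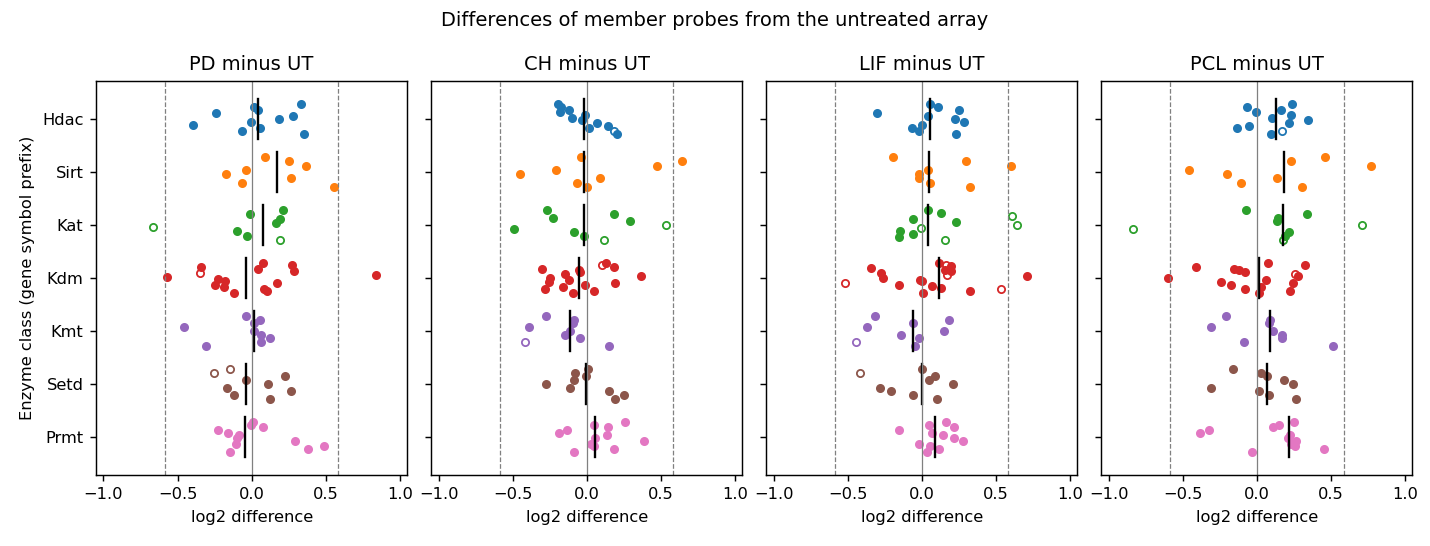
Log2 difference from the untreated array (x axis) of each enzyme probe detected on either array, by class (y axis) and condition (panels). Filled points were detected on both arrays and open points on 1 of them, black bars are class medians, dashed lines mark 1.5-fold, and 11 points lie beyond them.

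As a group the enzymes had small median differences, but with PCL and LIF more of their probes lay above the untreated array than below. The median difference of the members was 0.01 with PD, -0.03 with CH, 0.05 with LIF and 0.11 with PCL, against 0.00, 0.00, 0.00 and 0.01 for all probes. With PCL 51 of 76 enzyme probes were above the untreated array (67.1%, against 51.9% of all probes), and with LIF 49 of 79 (62.0%, against 50.7%). With arrays scaled to a common 75th percentile the median of the members was 0.08 with PCL and -0.01 with PD, and that of all probes was -0.01 with both. With that scaling 67.1% of the enzyme probes were above UT with PCL (against 48.9% of all probes) and 57.0% with LIF (against 45.3%). The highest class median was that of the arginine methyltransferases with PCL, 0.22 over 12 probes of 6 genes. It came to 0.07 with the other scaling, 0.195 without background correction and 0.21 with the authors' values.

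The class I deacetylases Hdac1 and Hdac2 are the nuclear enzymes of the Sin3, NuRD and CoREST complexes. Hdac2 measured 11.10 in UT, 11.04 with PD, 11.12 with CH, 11.08 with LIF and 10.97 with PCL. Hdac1 measured 8.97 in UT, 9.32 with PD, 9.18 with CH, 9.20 with LIF and 9.07 with PCL, so that the untreated array was the lowest, with the largest difference at 0.35 ± 0.08 (PD, bead-level standard error, 1 array per condition). Hdac3, the enzyme of the NCoR/SMRT corepressors, lay between 9.41 and 9.63. Hdac8, also of class I, was dim, between 4.89 and 5.42.

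Of the class IIa enzymes, which shuttle between nucleus and cytoplasm, Hdac4 was lowest with PD (5.75) and highest with PCL (6.36), against 6.14 in UT. That PD difference of -0.40 ± 0.18 had an additive effect of -0.19 and did not pass. For Hdac5 the dimmest of 3 probes was 0.29 higher with LIF and 0.34 higher with PCL, and its other probes differed by 0.04 and 0.22 with LIF. Hdac7 lay between 5.14 and 5.42. Hdac6, the cytoplasmic tubulin deacetylase, gave -0.30 ± 0.16 on one probe and 0.25 ± 0.17 on the other with LIF. Hdac10 was detected with CH alone and Hdac11 with PCL alone, at levels of 5.02 and 4.82, near the lowest detected signal.

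Among the sirtuins, which are NAD-dependent deacylases, the nuclear enzyme Sirt1 was highest with PD. It measured 8.92 in UT, 9.48 with PD, 8.92 with CH, 9.24 with LIF and 9.22 with PCL. Both arrays with PD and the LIF array therefore lay above UT and CH, and the difference was 0.56 ± 0.11 with PD and 0.33 ± 0.12 with LIF. Its PD effect in the additive fit was 0.34 ± 0.12 (fit SE, limma adjusted p = 0.108), with a 95% interval of 0.11 to 0.57, and it did not pass.

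Sirt6, a chromatin-bound sirtuin that removes acetyl groups from H3K9, was dim on both detected probes and lowest on the untreated array for both. One probe (ILMN_2684909) measured 4.98 in UT, 5.34 with PD, 5.45 with CH, 5.58 with LIF and 5.75 with PCL. The other (ILMN_2684910) measured 5.22, 5.47, 5.86, 5.52 and 5.45 in the same order. The first passed 1.5-fold with LIF (0.60 ± 0.17) and PCL (0.77 ± 0.19), the second with CH (0.64 ± 0.20), and the array that stood highest was not the same for both. Against the single-agent arrays that lack the agent (all single-agent arrays for PCL) these differences were 0.19, 0.29 and 0.37. Sirt7, a nucleolar and chromatin enzyme, was highest with PCL (8.36, against 7.90 in UT, 7.99 with PD, 7.87 with CH and 7.71 with LIF). Sirt2, largely cytosolic, lay between 6.38 and 6.54. The mitochondrial Sirt3 lay between 7.16 and 7.45, and the mitochondrial Sirt5 was lower with CH and PCL on both of its probes. One Sirt5 probe differed from UT by -0.45 ± 0.17 with CH and -0.20 ± 0.21 with PCL, the other by -0.21 ± 0.14 and -0.46 ± 0.16.

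Of the acetyltransferases, Kat2a, the GCN5 subunit of SAGA, lay between 8.90 and 9.22 and was highest with PCL. Its paralog Kat2b measured 5.36 in UT, 4.69 with PD, 4.86 with CH, 5.21 with LIF and 4.52 with PCL on its best probe. That probe was not detected with PD and PCL. Its level with CH counted as detected there but was under the lowest level detected with PD, 4.98. The probe was at least 1.29-fold lower with PD and at least 1.46-fold lower with PCL, and its PD effect of -0.49 ± 0.20 (fit SE, limma adjusted p = 0.236) did not pass. Another Kat2b probe, detected with LIF alone, differed from UT by -0.35 with PD, -0.21 with CH, -0.01 with LIF and -0.21 with PCL.

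Kat5 (TIP60, an acetyltransferase of histone H4 and H2A) had a dim probe that was not detected in UT and with PD and measured 5.04 with CH, 5.14 with LIF and 5.21 with PCL. That probe was at least 1.19-fold higher with LIF and at least 1.25-fold higher with PCL, while the brighter Kat5 probe measured 7.41 in UT, 7.58 with PD, 7.70 with CH, 7.64 with LIF and 7.54 with PCL. On both probes UT was the lowest array. The dim probe of Kat6b that passed 1.5-fold with LIF was detected on that array alone at 4.87, below the lowest signal detected in UT, so it gives no fold, and the brighter Kat6b probe differed by -0.06 with LIF. Kat7, which acetylates H3 and H4, was highest with PCL (8.26, against 7.92 in UT). Kat8, the H4K16 acetyltransferase, was lowest with CH (7.69, against 7.96 in UT and 8.17 with PD). The ATAC complex subunit Kat14 lay between 9.73 and 10.07 on its brighter probe, and its other probe, between 4.83 and 5.02, was detected on every array except UT.

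The demethylase Kdm5b, which removes methyl groups from H3K4, had the widest range of the 66 enzyme probes detected on all 5 arrays, 0.84. It measured 5.07 in UT, 5.91 with PD, 5.44 with CH, 5.78 with LIF and 5.35 with PCL. UT was thus the lowest array and the single agents PD and LIF the highest, with the combination of all 3 agents nearer to UT. The probe was 1.79-fold higher with PD (0.84 ± 0.23) and 1.64-fold higher with LIF (0.71 ± 0.24). Against the mean of the single-agent arrays that lack the agent these differences were 0.30 and 0.11, and the PD effect in the fit was 0.22 and did not pass. Without background correction the differences from UT were 0.35 with PD and 0.29 with LIF. With the authors' values they were 1.29 and 1.12, so their size depended on the processing. PCL fell short of the sum of the single agents by 1.64 on the log2 scale (departure -1.64). That was the largest departure among the 66 enzyme probes detected on all arrays, whose median was 0.24 in size, against 0.27 for all such probes. The untreated array enters every difference in this sum, so a low UT value by itself lowers the departure. UT measured 5.07 here, near the lowest level detected on that array, 4.89. Whether the agents act against one another was not tested.

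Kdm4c, an H3K9 and H3K36 demethylase, was lowest on the 2 arrays with the MEK inhibitor. It measured 7.10 in UT, 6.52 with PD, 6.85 with CH, 6.84 with LIF and 6.50 with PCL. How many probes of the whole array split by an agent in this way was not counted, here or for Kmt2b below. The summed signal of the fibroblast markers was 1577 in UT, 1324 with PD, 1553 with CH, 1414 with LIF and 1548 with PCL. Of these 8 markers, 4 were detected on no array, and a part of the feeder cells in the Kdm4c values was not tested. The Kdm4c differences were -0.57 ± 0.11 with PD and -0.60 ± 0.12 with PCL, and its PD effect of -0.39 ± 0.14 (fit SE, limma adjusted p = 0.146; 95% interval -0.67 to -0.11) did not pass. Without background correction the differences were -0.37 and -0.38. Kdm4a was not detected with LIF (4.60) and lay between 5.12 and 5.37 on the other arrays, and the brighter Kdm4b probe lay between 8.92 and 9.21.

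The flavin-dependent H3K4 demethylase Kdm1a (LSD1) measured 10.81 in UT, 10.69 with PD, 10.72 with CH, 10.82 with LIF and 10.82 with PCL. Its paralog Kdm1b was 0.33 ± 0.12 higher with LIF and 0.23 higher with PCL. Kdm3a, an H3K9 demethylase, was lowest with CH on its brightest probe (8.79, against 9.07 in UT). Its CH effect was -0.29 ± 0.12 (fit SE, limma adjusted p = 0.302), while the other Kdm3a probes had CH effects of -0.04 and 0.07. One of these others was -0.24 ± 0.13 from UT with PD. Of the H3K27 demethylases, Kdm6a lay between 8.75 and 9.16 on its brighter probe, and on both of its probes PCL was the lowest array. Kdm8 lay between 7.58 and 7.71 on its brighter probe, and its other probe, between 4.61 and 4.90, was detected with CH and LIF. Kdm2b, which binds CpG islands, was detected with LIF alone, the X-linked Kdm5c with LIF and PCL, and the Y-linked Kdm5d on every array except that with PD, with levels between 4.21 and 5.31 on the detected probe of each of these 3 genes. Kdm5d measured 4.96 with PD, just under the lowest level detected on that array (4.98). It differed from UT by -0.28 ± 0.19 with LIF.

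Among the lysine methyltransferases Kmt2b, an H3K4 methyltransferase of the MLL family, had the lowest adjusted p of all enzyme probes. It measured 7.33 in UT, 7.02 with PD, 7.48 with CH, 7.28 with LIF and 7.84 with PCL. The 2 arrays with CH were the highest. Its CH effect was 0.42 ± 0.13 (fit SE, limma adjusted p = 0.0822; 95% interval 0.16 to 0.68), which did not pass, while the difference from UT was 0.15 ± 0.11 with CH alone, 0.52 ± 0.11 with PCL and -0.31 ± 0.11 with PD. PCL exceeded the sum of the single agents by 0.72. Kmt5a, which places the first methyl group on H4K20, lay between 7.47 and 8.02 on its 3 brighter probes, and a dim probe, between 4.57 and 5.08, was detected in UT and with PD and PCL. Kmt5c, which adds further methyl groups there, was highest in UT (8.67) and lowest with LIF (8.35), a difference of -0.31 ± 0.09.

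Among the SET domain proteins Setd1a, an H3K4 methyltransferase, lay between 8.23 in UT and 8.50 with PCL, and Setd2, the H3K36 trimethylase, between 5.35 and 5.73. Setd5 lay between 8.28 and 8.55, and Setd6, known for methylating the NF-kappaB subunit RelA, between 7.98 and 8.21. Setd7, which methylates H3K4 and other proteins, was not detected with PD on either probe. The lowest detected level was higher on that array (4.98) than on any other, so this gives no fold. Its probes differed from UT by -0.08 and 0.01 with CH and by 0.03 and -0.16 with PCL.

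Of the arginine methyltransferases, Prmt1, the main source of asymmetric dimethylarginine, lay between 12.87 with PD and 13.06 with LIF. Prmt5, the main symmetric enzyme, was measured with 3 probes, which were higher with PCL by 0.21, 0.22 and 0.26 and with LIF by 0.22, 0.14 and 0.28. With CH the third Prmt5 probe stood 0.39 ± 0.11 above UT and the other two 0.06 and 0.14, while with PD they gave -0.10, -0.09 and 0.29. Prmt3, which methylates a ribosomal protein, was highest with PCL (10.92, against 10.58 to 10.71 on the other arrays). Prmt6, which methylates H3R2, was lowest with PCL (8.01, against 8.21 to 8.46).

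Prmt2, an arginine methyltransferase with weak activity on histones, was highest with PD or PCL on both of its probes. Probe ILMN_3099751 measured 8.56 in UT, 9.05 with PD, 8.61 with CH, 8.62 with LIF and 8.82 with PCL, and probe ILMN_1216953 measured 8.34, 8.72, 8.53, 8.46 and 8.80 in the same order. On both probes the PD and PCL arrays lay above the other 3, and the share of all probes that split in this way was not counted. The PD effects were 0.36 ± 0.12 and 0.29 ± 0.12 (fit SE, limma adjusted p = 0.0886 and 0.264), so neither passed, and their 95% intervals ran from 0.13 to 0.60 and from 0.06 to 0.53. The differences of PD from UT were 0.49 ± 0.11 and 0.38 ± 0.06, and 0.37 and 0.27 with arrays scaled to a common 75th percentile.

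**Figure D4:**
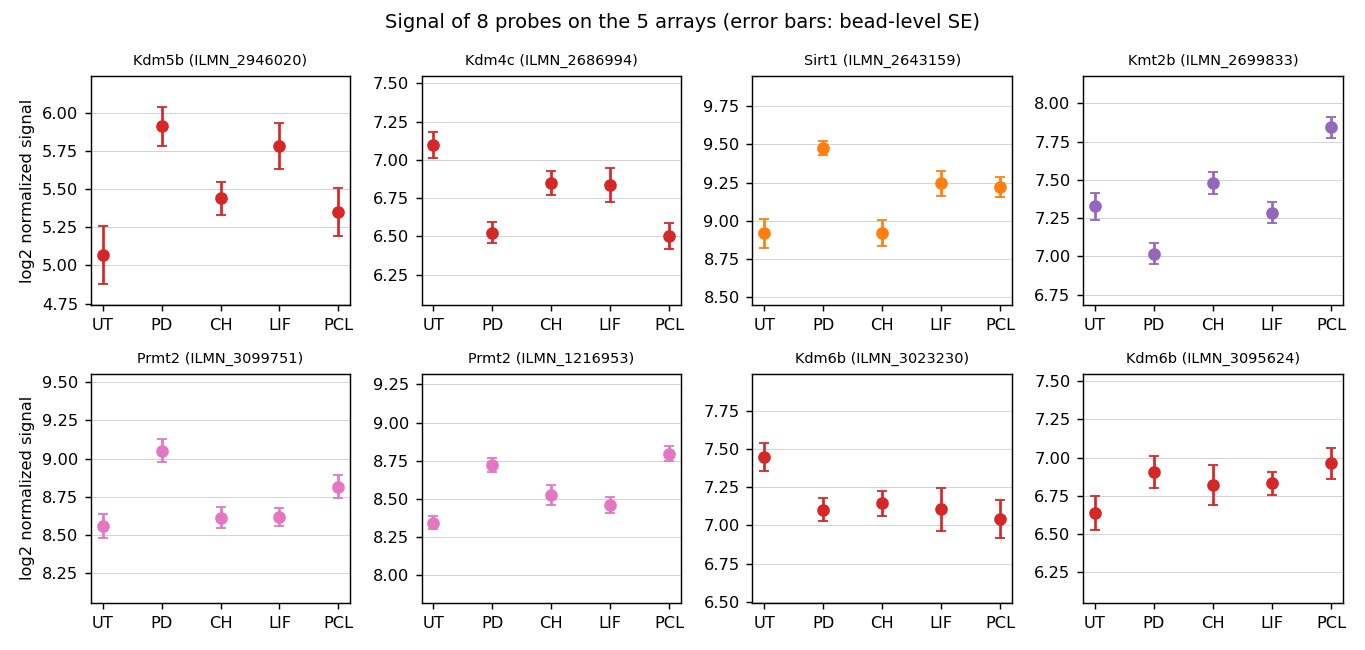
Log2 normalized signal (y axis, 1.5 units in every panel) of 8 enzyme probes on the 5 arrays (x axis), with bead-level standard errors. Kdm4c is lowest and both Prmt2 probes are highest on the 2 arrays with PD, Kdm5b is lowest in UT, and the 2 Kdm6b probes run in opposite directions from UT.

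Probes of the same gene disagreed for several enzymes. With 2 or more probes detected on both arrays, the probes pointed in opposite directions for 8 of 14 genes with PD, 3 of 15 with CH, 9 of 14 with LIF and 9 of 15 with PCL, and over all genes of the array the shares were 44.6%, 47.7%, 51.0% and 39.8%. Kdm6b, the inducible H3K27 demethylase, was the clearest. Its probe ILMN_3023230 measured 7.45 in UT, 7.10 with PD, 7.14 with CH, 7.10 with LIF and 7.04 with PCL, and its probe ILMN_3095624 measured 6.64, 6.91, 6.82, 6.83 and 6.96. UT was thus the highest array on the first and the lowest on the second. The gap between their differences was 0.61 with PD, 0.54 with LIF and 0.73 with PCL, against a median gap of 0.28, 0.28 and 0.26 for the enzyme genes and 0.20, 0.21 and 0.21 for all genes. Kmt5b, an H4K20 methyltransferase, differed from UT by -0.46 ± 0.15 with PD, -0.39 ± 0.15 with CH and -0.37 ± 0.14 with LIF on its brightest probe, while its other probes gave 0.01 and 0.06 with PD. Opposite directions with a gap over 0.5 were also found for Hdac6 with LIF, and for Prmt7 (-0.33 and 0.25) and Setd4 (-0.31 and 0.24) with PCL. The Setd4 probe that was higher with PCL stood at -0.28 ± 0.22 with CH, the lower one at -0.28 ± 0.19 with LIF, and the Prmt7 probe at 0.25 with PCL stood at 0.26 ± 0.12 with CH. The transcripts that each probe matches were not analysed here.

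**Figure D5:**
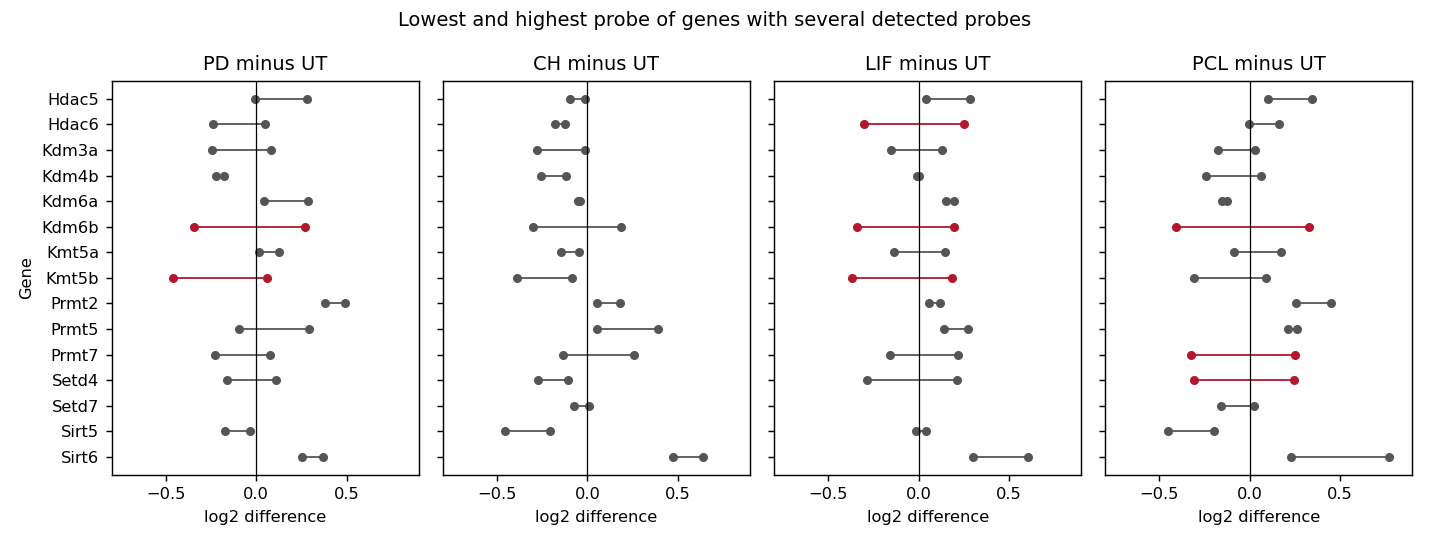
Lowest and highest log2 difference from the untreated array (x axis) among the probes of each enzyme gene (y axis) with 2 or more probes detected on both arrays. Red marks pairs of opposite direction with a gap over 0.5, which were 2 genes with PD, 0 with CH, 3 with LIF and 3 with PCL.

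Promoter sequences are shown for the 3 genes with the lowest adjusted p for PD, Prmt2, Sirt1 and Kdm4c, and for Kdm5b, whose range was the widest of the probes detected on all 5 arrays. They come from RefSeq on GRCm38.p6 and run 300 bases from 5′ to 3′, most of them before the gene's start. Capitals mark matches to 5 motifs searched on both strands, namely the ETS core CCGGAAG, the TCF/LEF motif CTTTGAT, the STAT motif TTCNNNGAA, the cyclic AMP element TGACGTCA and the E-box CACGTG. The table lists 2 promoters for Kdm4c, of which the more upstream is shown.
Prmt2 promoter, chr10:76237816-76238115, minus strand: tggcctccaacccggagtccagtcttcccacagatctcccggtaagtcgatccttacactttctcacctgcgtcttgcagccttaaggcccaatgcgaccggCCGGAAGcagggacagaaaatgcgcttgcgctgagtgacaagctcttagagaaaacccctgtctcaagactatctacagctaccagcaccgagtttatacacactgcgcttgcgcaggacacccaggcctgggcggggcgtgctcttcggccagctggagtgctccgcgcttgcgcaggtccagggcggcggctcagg
Sirt1 promoter, chr10:63338986-63339285, minus strand: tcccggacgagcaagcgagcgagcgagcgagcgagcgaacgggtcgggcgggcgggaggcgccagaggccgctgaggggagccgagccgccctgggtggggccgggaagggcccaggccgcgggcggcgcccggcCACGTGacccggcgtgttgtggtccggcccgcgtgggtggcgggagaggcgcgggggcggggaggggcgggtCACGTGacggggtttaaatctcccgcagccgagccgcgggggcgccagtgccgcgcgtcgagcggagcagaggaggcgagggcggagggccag
Kdm4c promoter, chr4:74242247-74242546, plus strand: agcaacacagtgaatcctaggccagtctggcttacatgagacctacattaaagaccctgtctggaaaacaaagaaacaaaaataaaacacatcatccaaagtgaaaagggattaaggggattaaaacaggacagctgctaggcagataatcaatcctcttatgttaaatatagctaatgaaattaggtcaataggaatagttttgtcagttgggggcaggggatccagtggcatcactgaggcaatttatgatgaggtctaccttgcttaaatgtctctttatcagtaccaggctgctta
Kdm5b promoter, chr1:134559928-134560227, plus strand: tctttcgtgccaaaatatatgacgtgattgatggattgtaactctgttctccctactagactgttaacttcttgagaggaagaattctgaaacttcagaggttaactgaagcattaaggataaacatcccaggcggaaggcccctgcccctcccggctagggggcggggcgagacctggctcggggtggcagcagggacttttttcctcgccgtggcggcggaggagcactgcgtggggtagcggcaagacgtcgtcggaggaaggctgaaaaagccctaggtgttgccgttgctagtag
The Prmt2 window held 1 match, the ETS core, a motif bound by factors downstream of ERK, and the Sirt1 window held 2 E-boxes. The windows of Kdm4c and Kdm5b held 0 matches. The Sirt1 window had a GC content of 79.0% with 47 CpG dinucleotides, against 60.3% and 20 for Prmt2, 54.7% and 17 for Kdm5b, and 40.0% and 0 for the Kdm4c window. Over the 72 promoters of 51 enzyme genes in the table the ETS core was found in 12 (16.7%, against 8.86% of 32851 promoters), the E-box in 7 (9.72%, against 7.15%), the STAT motif in 5 (6.94%, against 8.30%), the cyclic AMP element in 1 (1.39%, against 1.79%) and the TCF/LEF motif in 0 (against 3.73%). Enzyme promoters were also richer in GC, with a median of 60.8% against 52.7% and 20.5 CpG dinucleotides against 7. The letters in these windows say nothing on which factor binds there.

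Other chromatin genes were measured beside the enzymes, each by its probe of highest mean level alone. The shares of all probes set beside them cover every detected probe, dim ones and several per gene included. Of 71 genes in 8 fixed lists (Polycomb complex PRC2, the H3K4 methyltransferase core, H3K9 methyltransferases, other methyltransferases, acetyltransferases, deacetylase partners, other JmjC proteins and acetyl-lysine readers), 45 were tested, and 0 rose and 0 fell in any term of the additive limma fit, with the background shares given above. At an unadjusted p under 0.05 there were 7 for PD (15.6%, against 10.6% of all probes), 3 for CH (6.67%, against 10.7%) and 7 for LIF (15.6%, against 7.12%). Among genes detected on at least 1 of the 2 arrays compared, the 1.5-fold limit was passed by 4 of 42 with PD (9.52%, against 5.4% of all probes), 1 of 42 with CH (2.38%, against 3.01%), 0 of 41 with LIF (against 1.72%) and 0 of 40 with PCL (against 6.36%), and the mean log2 signal of all 5 was under 6. With PD the PRC2 accessory protein Phf19 differed by 0.61, Sin3b by 0.75, the coactivator Ncoa1 by 0.75 and the reader Brd8 by -0.67, and with CH the corepressor subunit Tbl1xr1 differed by 0.78. All but Phf19 were detected on 1 of the 2 arrays compared, which gives at least 1.19-fold higher for Sin3b, 1.29-fold higher for Ncoa1, 1.17-fold lower for Brd8 and 1.20-fold higher for Tbl1xr1. Ezh2, the catalytic subunit of PRC2, differed by 0.05 with PD, -0.23 with CH, -0.04 with LIF and 0.05 with PCL. Suz12 differed by -0.11, 0.12, 0.01 and 0.12 in the same order. Eed, which binds the H3K27 mark, was lower with all 4 (-0.17, -0.43, -0.38 and -0.44). These Eed differences share the untreated array, which was the highest for its probe. In the additive fit its effects were 0.03 for PD, -0.23 for CH and -0.17 for LIF, and none passed.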

How the data were processed

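The authors deposited scanner tables with, per the file headers, a signal intensity, a standard error over beads and a detection p-value for each probe, exported with BeadStudio per the submitters' processing notes. They also deposited a table of processed signal values (whole numbers with a median of 65 on each array and 12415 to 12429 empty cells per array), with no statement of its normalization in the labels. It served as an alternative, floored at 16.

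Intensities were background-corrected with the normexp model of limma 3.58.1 in R 4.3.3 (control levels inferred from detection p-values, offset 16), quantile normalized and taken to log2. Probes were kept apart, not averaged by gene. For the cell type markers and the other chromatin genes, only the probe of highest mean level was used for each gene. A probe counted as detected at a detection p-value under 0.01. Where a probe was detected on 1 of 2 arrays, the fold is a bound against the lowest detected signal of the other array, or the probe's own signal if higher. Bead-level errors leave out culture, extraction and hybridisation, and precision is limited by having 5 arrays.

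The additive model (lmFit, eBayes with an intensity trend) was fitted to all detected probes, with Benjamini-Hochberg adjustment. Probes of like intensity share 1 spread in it, since the prior was estimated with infinite degrees of freedom. It was tested on simulated data. All 99 probes matched a RefSeq gene ID, and 0 symbols differed.

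Members and lists were chosen with earlier results of these data known. Named, with a level or a difference, were the 3 brightest detected probes of a class, the 6 highest and 6 lowest differences per comparison, every member past 1.5-fold or passing the fit, probes of partial detection, and genes whose probes were opposed by over 0.5. Other members and the promoters shown were picked after their values were seen, as was the split at a log2 signal of 6. Alternatives were another scaling, no background correction, the authors' values, other filters, thresholds and references, and other fits.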

Additional observations from a re-analysis of the deposited data

How the results depend on the processing

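No paired analysis was possible because each condition has 1 array. The count of enzyme probes passing the additive limma fit was 0 for PD, CH and LIF under all 6 alternatives (scaling to a common 75th percentile, no background correction, the authors' values, no filter on dim probes, 1 probe per gene, and no intensity trend). Over the whole array the fit called 308, 147 and 87 probes for PD, CH and LIF, 229, 69 and 68 with the other scaling, 220, 52 and 18 without the intensity trend, and 0 for each on the authors' values, so that this last alternative says nothing about the enzymes. Probes detected on at least 1 array were 81, and 86 at a detection p under 0.05. Counts at 1.5-fold, which were 2, 1, 4 and 4 for PD, CH, LIF and PCL, depended on most settings. Without background correction they were 0, 0, 0 and 0, and at a 2-fold threshold also 0, 0, 0 and 0. Against the single-agent arrays in place of UT they were 0, 0, 1 and 0, with detection required on both arrays 1, 1, 2 and 2, with the authors' values 4, 5, 2 and 4, and with the other scaling 2, 3, 5 and 4. No difference past 1.5-fold changed sign with the other scaling. Without background correction no sign could change. Both settings are quantile normalized, and the correction keeps the order of probes within each array. Of 61 named differences, 53 moved by no more than the bead-level error with the other scaling, 38 without background correction and 43 with the authors' values.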
